A study of Bos taurus with 29 samples.

Results

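Genes of sterol and fatty acid synthesis were followed through 12 RNA sequencing libraries of bovine corpus luteum, the ovarian gland that makes progesterone. The members were 34 genes chosen by name, 18 enzymes of the sterol branch, 9 of the fatty acid branch and 7 regulators or sterol carriers. Of these, 33 were rows of the count table, which holds 19112 genes, and STARD4, a sterol carrier, was not analysed here. All 33 passed the filter on low counts, as did 18939 genes in all, and the lowest count of a member in any library was 61 (EBP).

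Corpus luteum tissue of slaughterhouse origin was sequenced in 4 groups, which the labels call NC, CM_EE, CM_EE_AI and CM_EE_IVF. A second label, followed by the R number, reads DMEN for NC, End for CM_EE, End_vivo for CM_EE_AI and End_vitro for CM_EE_IVF. In the same study, explants of endometrium were kept without an embryo (EE), with 1 day 7 embryo from in vivo production (AI), or with 1 day 7 embryo made in vitro (IVF). The letters NC and CM are not explained in the labels; here NC served as the reference group and the 3 CM groups were read as exposed to products of those explants. Every group held a library numbered R2, a library numbered R4 and a library numbered R5. Age, breed, length of exposure, the meaning of the R numbers and whether libraries came from separate animals are not stated, so p-values measure only the spread between these samples. R4 and R5 have more sample titles than columns in the table, with the way of joining not stated, and R2 titles are built differently, so that a difference between R2 and the other numbers cannot be told apart from a difference in sequencing.

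Luteal cells turn cholesterol into progesterone, and obtain it from lipoproteins, from stored esters or by their own synthesis from acetyl-CoA. The sterol branch joins acetyl-CoA units into mevalonate, isoprenoids and squalene, which is closed into lanosterol and trimmed to cholesterol. The fatty acid branch carboxylates acetyl-CoA, builds palmitate on fatty acid synthase and then elongates and desaturates it. Both branches are under the SREBP transcription factors: SREBF2 is best known for sterol genes and SREBF1 for fatty acid genes. SCAP carries the SREBPs to the Golgi for activation, while INSIG1 and INSIG2 hold that complex in the endoplasmic reticulum when sterols are plentiful.

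Library totals ran from 16536797 to 25747637 counts. Mitochondrially encoded transcripts took 49.5 to 55.9% of counts in the R2 libraries, 44.4 to 48.9% in R4 and 54.8 to 64.0% in R5. The 33 members together took 0.105 to 0.206% of counts in R2, 0.323 to 0.642% in R4 and 0.175 to 0.306% in R5. The highest share, 0.642%, was that of the CM_EE_AI R4 library, with 0.443% in the next. That library stood apart for most members. Counts of called enzymes and group medians that rest on it are given with and without it, and values of single genes only in part. Of 66 pairs of libraries, 0 were identical. Most luteal markers used here were well covered: STAR, CYP11A1 and HSD3B1, genes of luteal progesterone synthesis, had at least 2883, 4019 and 8498 counts in every library. LHCGR, FDX1 and SCARB1 had at least 1084, 1230 and 4754 counts. INHA, of the same list, was low, with 19 counts in its lowest library and 0.994 to 5.55 CPM (scaled counts, defined below).

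Below, levels are CPM, counts scaled to a common library size with trimmed-mean (TMM) factors, and values in a set of libraries run in the order NC, CM_EE, CM_EE_AI and CM_EE_IVF. Levels of different genes are not compared, because gene lengths were not used. Fold changes and adjusted p-values come from edgeR's quasi-likelihood test fitted to all 18939 genes, with Benjamini-Hochberg adjustment, and a gene was called at an adjusted p under 0.05. Means are given ± SD.

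Across the 4 groups, no member was called in any of the 6 comparisons, and 0 of 18939 genes were (0.00% in each comparison). Between the R numbers, the members separated widely, and the differences by R number are described first. R4 was highest and R2 lowest for most members: the mean was highest in R4 for 31 of 33 members and lowest in R2 for 32 of 33. FASN was highest in R5, and INSIG2 was lowest in R5. LPIN1 had nearly equal means in R4 and R5, 154.9 and 155.0 CPM. By single library, 28 of 33 members were highest in CM_EE_AI R4, all 18 sterol enzymes among them. In bulk tissue, fewer cells of a type and less RNA per cell cannot be told apart.

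**Figure D1:**
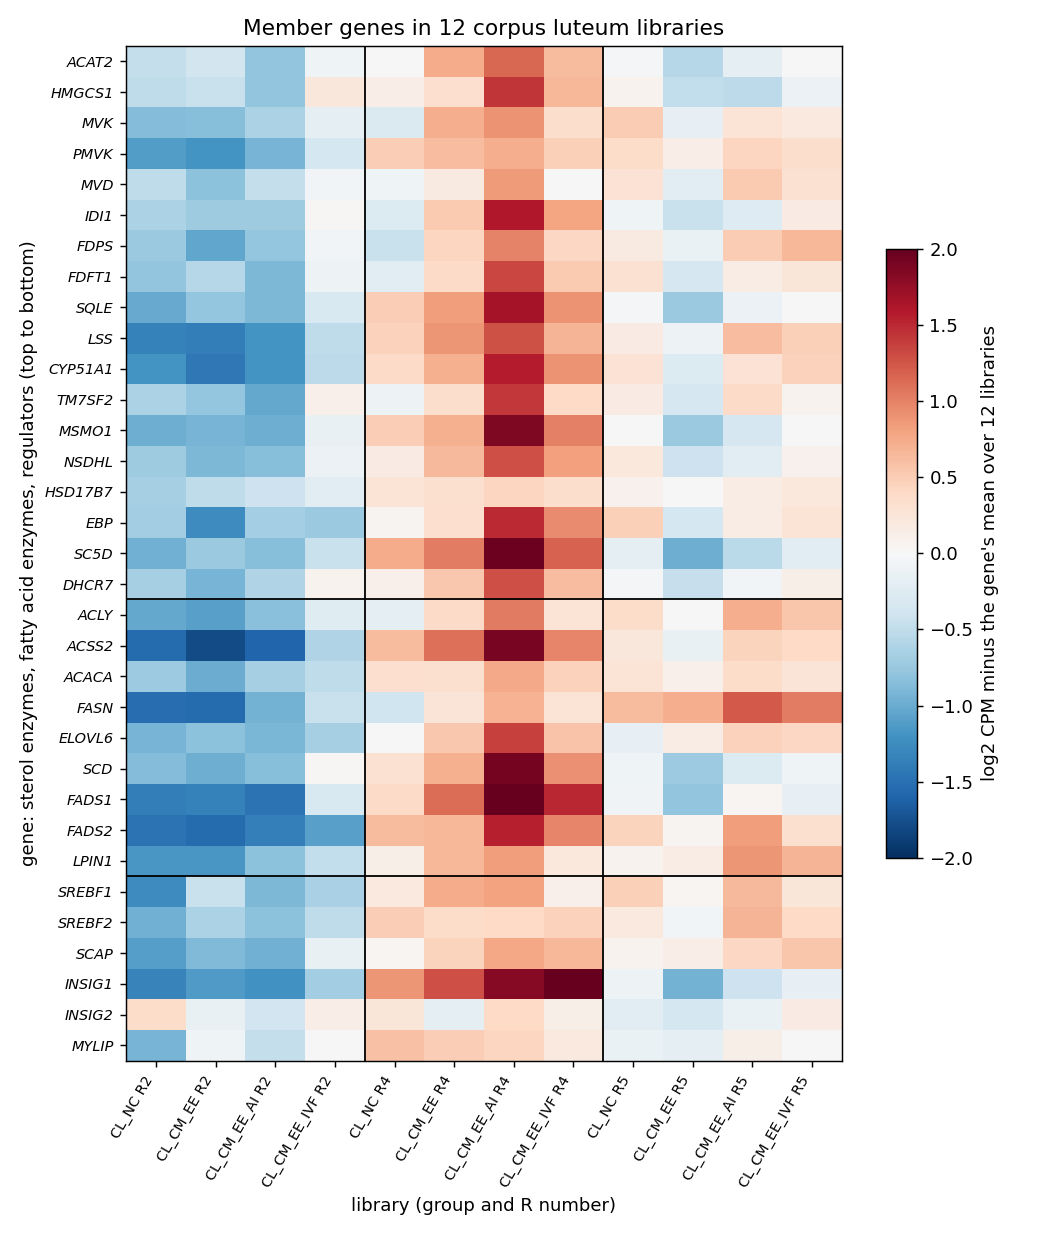
Each row is 1 of 33 member genes and each column 1 of 12 libraries, ordered by R number. Colour is log2 CPM minus the gene's mean over the 12 libraries, with horizontal lines between sterol enzymes, fatty acid enzymes and regulators. The R2 columns are mostly below the mean, the R4 columns mostly above it, and CM_EE_AI R4 is highest for 28 of 33 genes.

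All 18 sterol enzymes rose in R4 over R2, where 8.72% of the 18939 genes were called higher. Their median log2 difference was 1.21, against 0.04 over all genes, and ranged from 0.71 (MVD) to 2.01 (SC5D). In 11 of 18, all 4 R4 libraries lay above all 4 R2 libraries, as for 10.9% of all genes. Without CM_EE_AI R4, 14 of 18 were still called, at a median of 0.95. The count was 10 without CM_EE R4, 10 without CM_EE_AI R2 and 11 without CM_EE R2. The calls of ACAT2, HMGCS1, MVK, MVD, IDI1, FDPS, FDFT1 and TM7SF2 ended when at least 1 library was left out (2 libraries for ACAT2, up to 9 for MVD), while their directions held.

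All 9 fatty acid enzymes also rose in R4 over R2, at a median log2 difference of 1.47 and a range from 1.19 (ACLY) to 2.54 (ACSS2). In each of the 9 the R4 and R2 libraries did not overlap. Without CM_EE_AI R4 all 9 remained called, at a median of 1.29.

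The branches differed more in R5 over R2, a difference that was described and not tested. Of the 9 fatty acid enzymes, 7 were called higher, at a median log2 difference of 1.20, while 8 of 18 sterol enzymes were called higher, at a median of 0.58. Of all genes, 11.5% were called higher and the median was 0.08. Every R5 library lay above every R2 library in 7 of 9 fatty acid enzymes and 6 of 18 sterol enzymes, as for 17.4% of all genes. The 2 fatty acid enzymes not called were SCD and FADS1. The sterol count was 3 without NC R5, CM_EE R2, CM_EE R5 or CM_EE_AI R2, and 5 without NC R2, CM_EE_AI R5 or CM_EE_IVF R5. The calls of EBP, FDPS, HSD17B7, MVD and MVK were those that ended. The sterol median was 0.27 without NC R5, 0.30 without CM_EE_AI R2 and 0.61 without CM_EE_AI R4. Under DESeq2's size factors in edgeR, the sterol count was 5.

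R4 against R5 is the difference of the contrasts above, from the same fit, and not a separate observation. In it the sterol branch had the larger median. Of 18 sterol enzymes 8 were called higher in R4, at a median log2 difference of 0.66. Of 9 fatty acid enzymes 3 were called higher, namely ACSS2, SCD and FADS1, and 1 was called lower, FASN, at a median of 0.43. Over all genes 8.67% were called higher, 5.58% lower, and the median was −0.08. In 7 of 18 sterol and 3 of 9 fatty acid enzymes all R4 libraries lay above all R5 libraries, as for 11.5% of all genes. The sterol count rested on single libraries: it was 2 without CM_EE_AI R5, and 3 without CM_EE R4, CM_EE R5, CM_EE_AI R4 or CM_EE_IVF R5. The calls of SQLE and SC5D held in each case, and that of MSMO1 ended without CM_EE_AI R5 (edgeR adjusted p = 0.0507). The fatty acid count called higher was 2 without CM_EE_AI R4 and 1 without CM_EE_AI R5, where SCD was at an edgeR adjusted p of 0.0666.

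**Figure D2:**
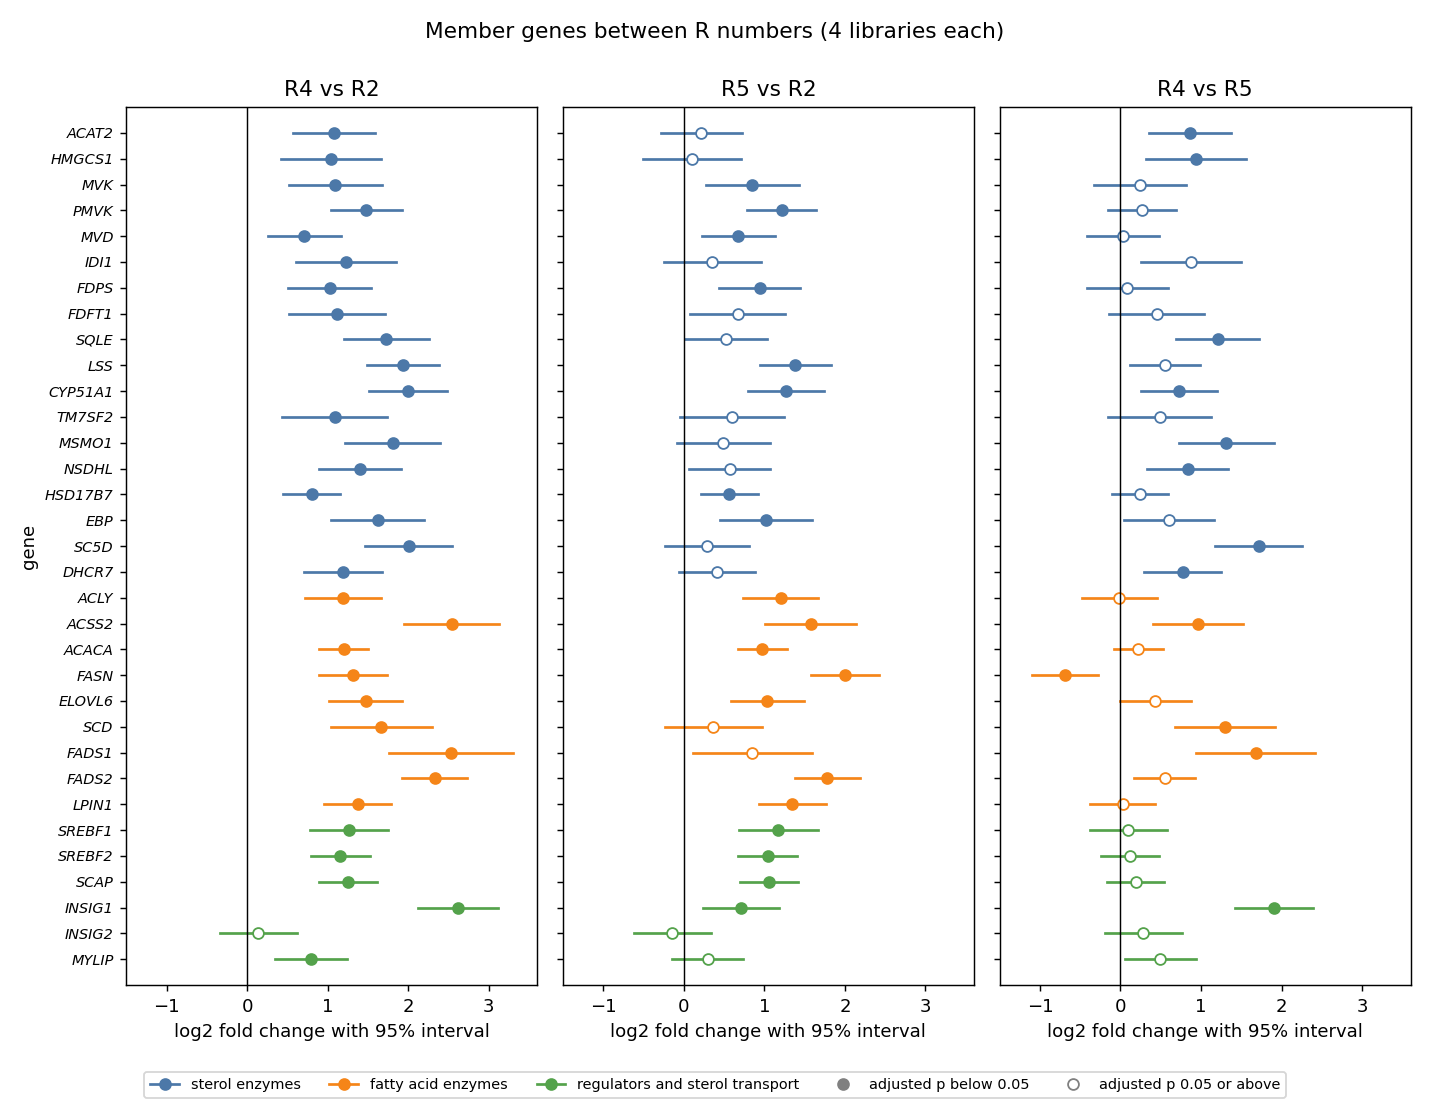
Points are log2 fold changes of 33 genes between R numbers, with 95% intervals as lines; filled points passed an adjusted p of 0.05. All 27 enzymes of both branches are filled for R4 over R2, 7 of 9 fatty acid and 8 of 18 sterol enzymes for R5 over R2, and FASN alone is filled below 0 for R4 over R5.

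At the entry to the sterol branch, ACAT2, which condenses acetyl-CoA into acetoacetyl-CoA, had means of 51.8 ± 10.4 CPM in R2, 110.5 ± 34.4 CPM in R4 and 60.04 ± 10.01 CPM in R5 (n = 4 each). HMGCS1, the cytosolic synthase of HMG-CoA, had 93.6 ± 30.2, 194 ± 85.1 and 99.2 ± 20.0 CPM in the same order. Both rose in R4 over R2 and over R5 and had intervals across 0 for R5 over R2, with log2 differences of 0.22 (−0.29 to 0.72) for ACAT2 and 0.11 (−0.50 to 0.72) for HMGCS1. The HMGCS1 difference between R5 and R2 changed sign under DESeq2's scaling. Without CM_EE_AI R4 the HMGCS1 log2 difference was 0.63 in place of 1.04 for R4 over R2. For R4 over R5 it was 0.51 in place of 0.94.

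The enzymes that phosphorylate and decarboxylate mevalonate kept similar means in R4 and R5. MVK had 7.94 ± 1.90 CPM in R2, 17.1 ± 5.61 CPM in R4 and 14.1 ± 2.64 CPM in R5. PMVK had 6.57 ± 1.93, 18.02 ± 1.52 and 15.0 ± 1.31 CPM, and MVD 14.5 ± 3.26, 24.03 ± 7.87 and 23.4 ± 4.83 CPM. All 3 were called higher in both R4 and R5 than in R2. None of the 3 passed the test for R4 against R5, where the log2 differences were 0.24 (−0.33 to 0.81), 0.27 (−0.15 to 0.69) and 0.03 (−0.42 to 0.48), and the sign for MVD turned without CM_EE R4 or CM_EE_AI R4.

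IDI1, the isomerase that makes the reactive isoprenoid unit, was at 60.6, 57.6, 57.2 and 95.1 CPM in the R2 libraries, 77.8, 135, 286 and 163 CPM in R4, and 88.7, 68.6, 78.9 and 105 CPM in R5. Only CM_EE, CM_EE_AI and CM_EE_IVF of R4 lay above all R2 and R5 libraries, since NC R4 at 77.8 CPM was inside both ranges. FDPS, which builds farnesyl diphosphate, was at 49.9, 40.4, 48.7 and 80.4 CPM in R2, 61.1, 113, 166 and 111 CPM in R4, and 94.1, 76.4, 119 and 132 CPM in R5. FDPS thus had overlapping libraries in R4 and R5, with a log2 difference of 0.08 (−0.42 to 0.59), and the NC library was the lowest of R4 for both genes.

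FDFT1, squalene synthase, had means of 75.6 ± 19.7 CPM in R2, 170.2 ± 78.6 CPM in R4 and 119.9 ± 21.8 CPM in R5. SQLE, the squalene epoxidase, was at 79.3, 94.1, 85.8 and 129.99 CPM in R2, 225, 286, 509 and 298 CPM in R4, and 158, 95.8, 148 and 159 CPM in R5. The R4 libraries of SQLE lay above all others, while CM_EE R5 fell within the R2 range. SQLE rose 3.31-fold in R4 over R2 (95% interval 2.31 to 4.76, edgeR adjusted p = 0.000626) and 2.30-fold in R4 over R5 (1.61 to 3.30, edgeR adjusted p = 0.00622), and R5 over R2 did not pass (1.44-fold, 1.01 to 2.05, edgeR adjusted p = 0.143).

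LSS, which closes the sterol ring to lanosterol, was at 25.3, 24.6, 28.0 and 45.3 CPM in R2, 88.9, 119, 155 and 104 CPM in R4, and 72.4, 59.9, 98.6 and 90.1 CPM in R5. Every R4 and every R5 library lay above every R2 library. LSS rose 3.83-fold in R4 over R2 (2.81 to 5.23, edgeR adjusted p = 0.000116) and 2.61-fold in R5 over R2 (1.93 to 3.55, edgeR adjusted p = 0.000532). R4 over R5 was 1.47-fold (1.09 to 1.98, edgeR adjusted p = 0.0864), with overlapping libraries.

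CYP51A1, the lanosterol demethylase, was at 48.9, 41.2, 48.9 and 77.7 CPM in R2, 146, 183, 332 and 209 CPM in R4, and 136, 92.9, 136 and 155 CPM in R5. It was called in all 3 contrasts, 4.00-fold for R4 over R2, 2.41-fold for R5 over R2 and 1.66-fold for R4 over R5 (edgeR adjusted p = 0.0416 for the last). That last call ended without CM_EE R4, CM_EE R5, CM_EE_AI R4, CM_EE_AI R5 or CM_EE_IVF R5, with the lowest log2 difference, 0.48, without CM_EE_AI R4, and in the fit with no group term (edgeR adjusted p = 0.0537). All R5 libraries lay above all R2 libraries, and R5 overlapped R4 only through NC R4 at 146 CPM.

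Among the enzymes that reduce and demethylate lanosterol, TM7SF2 had means of 12.5 ± 4.68, 27.6 ± 13.6 and 19.1 ± 3.77 CPM in R2, R4 and R5. MSMO1 had 77.98 ± 24.8, 278 ± 129 and 109 ± 25.2 CPM, and NSDHL 25.8 ± 7.07, 68.1 ± 21.9 and 37.8 ± 7.21 CPM. MSMO1 and NSDHL rose in R4 over both other sets and were not called for R5 over R2. HSD17B7 had the narrowest spread in R4, 14.7 ± 0.625 CPM, with 8.46 ± 1.12 CPM in R2 and 12.5 ± 0.818 CPM in R5, and was called higher in R4 and in R5 than in R2.

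Of the last steps, EBP, an isomerase of the sterol ring, was at 4.51, 3.04, 4.58 and 4.38 CPM in R2, 7.68, 9.37, 20.9 and 14.3 CPM in R4, and 10.4, 5.80, 8.16 and 8.99 CPM in R5. All R4 and R5 libraries of EBP were above all R2 libraries, and R4 and R5 overlapped. SC5D, the sterol desaturase, was at 53.1, 61.8, 57.5 and 76.4 CPM in R2, 174, 211, 406 and 237 CPM in R4, and 91.8, 52.8, 71.8 and 89.4 CPM in R5. The R4 libraries of SC5D lay above all others. SC5D rose 4.02-fold over R2 (2.76 to 5.85, edgeR adjusted p = 0.000292) and 3.29-fold over R5 (2.26 to 4.77, edgeR adjusted p = 0.00109), while R5 and R2 overlapped at 1.22-fold (0.851 to 1.76, edgeR adjusted p = 0.466). DHCR7, the reductase that completes cholesterol in one arm of the pathway, had 49.3 ± 15.8, 112 ± 39.8 and 64.6 ± 10.6 CPM in R2, R4 and R5.

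Of the fatty acid enzymes, those that supply acetyl-CoA differed from each other. ACLY, which splits cytosolic citrate, had 100.3 ± 29.4 CPM in R2 and nearly the same mean in R4 and R5, 231 ± 83.8 and 230.1 ± 46.7 CPM. ACSS2, which activates acetate, was the fatty acid gene with the largest difference between R4 and R2. It was at 45.1, 37.7, 43.7 and 85.9 CPM in R2, 203, 280.3, 489 and 259 CPM in R4, and 153, 118, 179 and 173 CPM in R5. Its 3 sets did not overlap, and it was called in all 3 contrasts, 5.81-fold for R4 over R2 (3.87 to 8.73, edgeR adjusted p = 0.000115), 2.98-fold for R5 over R2 and 1.95-fold for R4 over R5. The last call ended without CM_EE R4, CM_EE R5, CM_EE_AI R4, CM_EE_AI R5 or CM_EE_IVF R5, with the lowest log2 difference, 0.69, without CM_EE_AI R4.

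ACACA, the acetyl-CoA carboxylase, had 38.1 ± 5.20, 87.3 ± 12.9 and 74.6 ± 5.73 CPM in R2, R4 and R5. FASN, the fatty acid synthase, was at 46.6, 46.2, 69.5 and 98.4 CPM in R2, 101, 161, 218 and 162 CPM in R4, and 208, 221, 315 and 272 CPM in R5. Unlike all other enzymes except LPIN1, whose R4 and R5 means were nearly equal, FASN had its highest mean in R5. FASN rose 4.00-fold in R5 over R2 (2.98 to 5.36, edgeR adjusted p = 3.84e-05) and 2.49-fold in R4 over R2 (1.86 to 3.32, edgeR adjusted p = 0.000873). It was lower in R4 than in R5 at 0.622-fold (0.468 to 0.827, edgeR adjusted p = 0.0309). R4 and R5 overlapped only through CM_EE_AI R4 at 218 CPM, above NC R5 at 208 CPM. The call of R4 under R5 ended when any 1 of NC R4, NC R5, CM_EE R5, CM_EE_AI R5 or CM_EE_IVF R4 was left out, with log2 differences from −0.81 to −0.56 over all 12 single libraries left out.

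The enzymes that act on finished fatty acids split as well. ELOVL6, which elongates palmitate, was at 8.88, 9.61, 8.97 and 10.7 CPM in R2, 17.2, 24.8, 44.3 and 25.4 CPM in R4, and 15.2, 19.0, 23.4 and 22.7 CPM in R5, with all R4 and all R5 libraries above R2. SCD, the desaturase that makes oleate, was at 100.3, 93.5, 101 and 187 CPM in R2, 227, 302, 692 and 348 CPM in R4, and 173, 112, 152 and 173 CPM in R5. The R4 libraries of SCD lay above all others, and R5 fell within the R2 range. SCD rose 3.17-fold over R2 (2.05 to 4.90, edgeR adjusted p = 0.00256) and 2.46-fold over R5 (1.60 to 3.78, edgeR adjusted p = 0.0107), while R5 over R2 was 1.29-fold (0.849 to 1.96, edgeR adjusted p = 0.415). Without CM_EE_AI R4 the SCD log2 difference in R4 over R5 was 0.91 in place of 1.30.

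FADS1 and FADS2, which desaturate polyunsaturated fatty acids, differed in R5. FADS1 was at 5.17, 5.28, 4.84 and 11.002 CPM in R2, 17.8, 29.5, 76.5 and 38.7 CPM in R4, and 12.9, 7.86, 13.9 and 12.2 CPM in R5. FADS2 was at 7.62, 7.27, 8.25 and 9.98 CPM in R2, 33.0, 34.0, 62.7 and 42.1 CPM in R4, and 29.2, 22.1, 38.1 and 26.6 CPM in R5. FADS1 overlapped between R5 and R2 through CM_EE_IVF R2, whereas all R5 libraries of FADS2 were above all R2 libraries. FADS2 rose 5.03-fold in R4 (3.80 to 6.66, edgeR adjusted p = 2.13e-05) and 3.44-fold in R5 over R2 (2.61 to 4.53, edgeR adjusted p = 5.03e-05), whereas FADS1 was called in R4 (5.77-fold, 3.39 to 9.83, edgeR adjusted p = 0.000637) and not in R5 (1.80-fold, 1.08 to 3.01, edgeR adjusted p = 0.1). LPIN1, a phosphatidate phosphatase of glycerolipid synthesis, had 60.05 ± 14.0, 155 ± 36.8 and 155 ± 42.7 CPM in R2, R4 and R5.

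**Figure D3:**
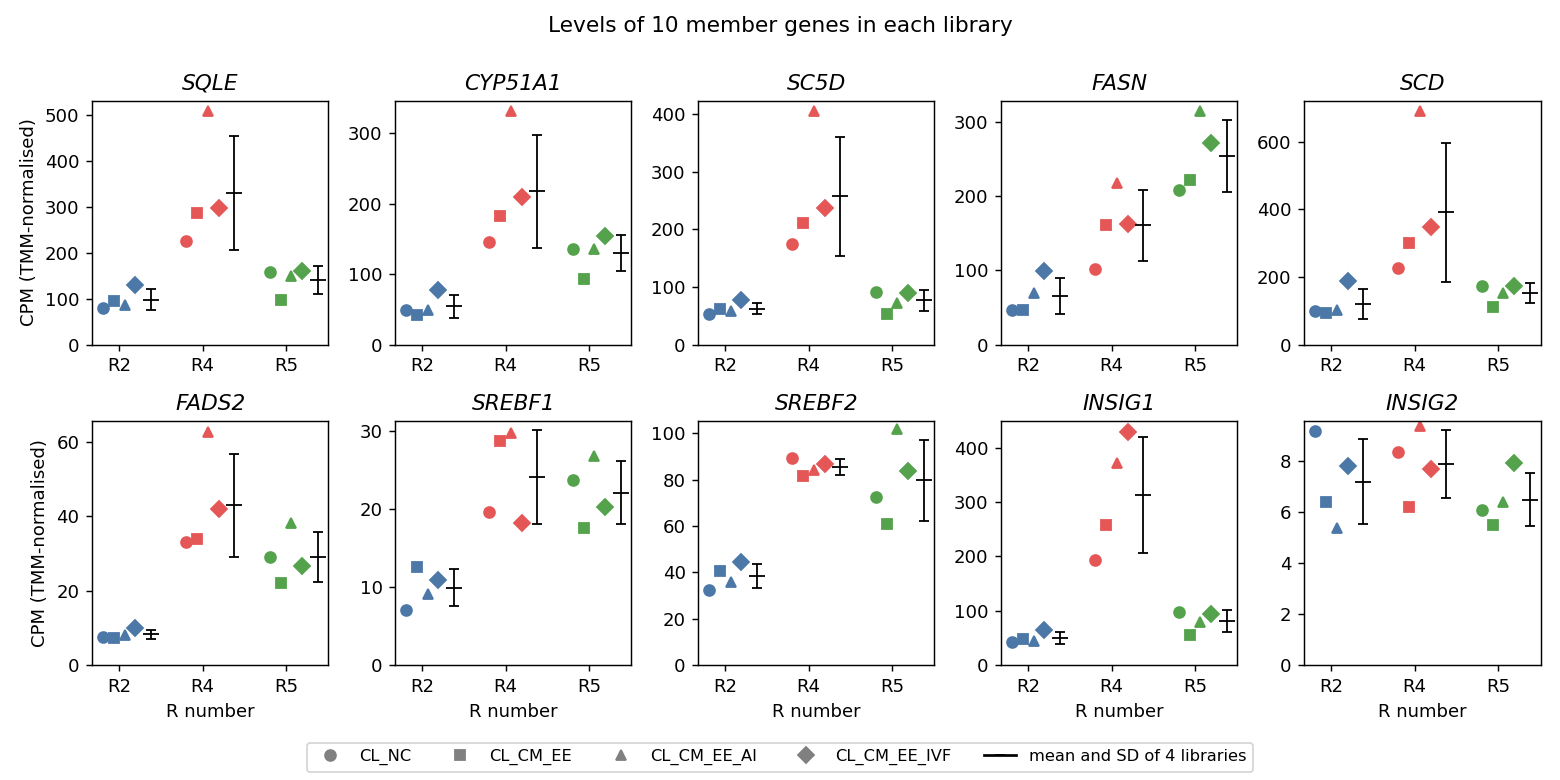
CPM of 10 member genes in each of 12 libraries, with the marker giving the group and the colour the R number; the black bar is the mean ± SD of 4 libraries. In SC5D, SCD and INSIG1 all R4 libraries lie above all others while R5 overlaps R2, FASN is highest in R5, and INSIG2 shows no separation of the sets.

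Ratios of counts within a library do not depend on the scaling. They were chosen after the values had been seen and carry no test. FASN counts per SCD count were 0.465 to 0.685 in R2, 0.315 to 0.533 in R4 and 1.20 to 2.07 in R5, so R5 alone held more FASN than SCD counts. FASN counts per SQLE count, a ratio across the branches, were 0.491 to 0.810 in R2, 0.428 to 0.563 in R4 and 1.31 to 2.30 in R5. FADS1 counts per FADS2 count were 0.355 to 0.457 in R5, below the 0.587 to 1.10 of R2 and the 0.540 to 1.22 of R4.

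Of the 6 regulators and carriers, 5 rose in R4 over R2, 4 in R5 over R2 and 1, INSIG1, in R4 over R5. The shares of all genes called higher were 8.72%, 11.5% and 8.67% in the same order. SREBF1 was at 7.07, 12.5, 9.06 and 10.9 CPM in R2, 19.6, 28.7, 29.7 and 18.2 CPM in R4, and 23.7, 17.5, 26.8 and 20.2 CPM in R5. SREBF2 was at 32.4, 40.7, 35.98 and 44.6 CPM in R2, 89.3, 81.5, 83.9 and 86.8 CPM in R4, and 72.3, 60.9, 102 and 83.7 CPM in R5. For both, all R4 and R5 libraries lay above all R2 libraries and R4 overlapped R5. SREBF1 rose 2.40-fold in R4 (1.71 to 3.37, edgeR adjusted p = 0.00297) and 2.25-fold in R5 (1.60 to 3.16, edgeR adjusted p = 0.00305) over R2. SREBF2 rose 2.23-fold in R4 (1.73 to 2.88, edgeR adjusted p = 0.000893) and 2.06-fold in R5 (1.59 to 2.66, edgeR adjusted p = 0.00112). R4 against R5 gave log2 differences of 0.09 (−0.38 to 0.57) for SREBF1 and 0.12 (−0.25 to 0.48) for SREBF2. SREBF1 counts per SREBF2 count were 0.218 to 0.308 in R2, 0.210 to 0.354 in R4 and 0.242 to 0.329 in R5, 3 ranges that overlap.

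SCAP, the escort of the SREBPs, was at 27.0, 31.4, 29.8 and 52.6 CPM in R2, 59.7, 78.9, 99.1 and 92.2 CPM in R4, and 61.1, 63.7, 77.8 and 85.3 CPM in R5. Like the SREBF genes it was called higher in R4 (2.37-fold) and R5 (2.08-fold) than in R2. MYLIP, a ubiquitin ligase that marks lipoprotein receptors for degradation, had 18.5 ± 5.02, 31.6 ± 3.48 and 22.5 ± 2.24 CPM, and was called for R4 over R2 alone (1.73-fold, 1.27 to 2.35, edgeR adjusted p = 0.0233), a call that ended when any 1 of NC R2, NC R4, NC R5, CM_EE R2, CM_EE R4 or CM_EE_AI R2 was left out. It was the 1 member whose highest library was NC R4.

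INSIG1 and INSIG2 parted. INSIG1, itself a known SREBP target, was at 41.9, 47.9, 45.4 and 65.0 CPM in R2, 194, 257, 372 and 429 CPM in R4, and 98.6, 54.7, 79.4 and 94.4 CPM in R5. INSIG2 was at 9.18, 6.37, 5.38 and 7.77 CPM in R2, 8.33, 6.17, 9.34 and 7.67 CPM in R4, and 6.07, 5.49, 6.39 and 7.92 CPM in R5. INSIG1 rose 6.13-fold in R4 over R2 (4.36 to 8.63, edgeR adjusted p = 3.26e-05) and 3.74-fold in R4 over R5 (2.68 to 5.23, edgeR adjusted p = 0.000358), with R4 libraries above all others. INSIG1 in R5 over R2 was 1.64-fold (1.18 to 2.27, edgeR adjusted p = 0.0345). R5 and R2 overlapped through CM_EE R5, and the call ended when any 1 of 9 libraries was left out (all but NC R4, CM_EE_AI R4 and CM_EE_IVF R4), the lowest log2 difference being 0.29 without NC R5. INSIG2 was not called in any of the 3 contrasts, with 1.10-fold for R4 over R2 (0.792 to 1.53) and overlapping libraries throughout. INSIG1 counts per INSIG2 count were 4.56 to 8.43 in R2, 23.3 to 55.9 in R4 and 9.95 to 16.3 in R5.

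The branches can be set side by side in each library as the median log2 CPM of their genes, each gene centred on its own mean. This centring ties the libraries together, so that low values in R2 go with higher ones elsewhere. The medians therefore do not compare the levels of the branches. The sterol median was −0.72, −0.83, −0.82 and −0.13 in R2, 0.12, 0.58, 1.31 and 0.65 in R4, and 0.17, −0.34, 0.14 and 0.18 in R5. The fatty acid median was −1.16, −1.16, −0.92 and −0.49 in R2, 0.30, 0.66, 1.37 and 0.57 in R4, and 0.22, 0.05, 0.46 and 0.40 in R5. The fatty acid median was below the sterol median in all 4 R2 libraries, by 0.10 to 0.43, and above it in all 4 R5 libraries, by 0.06 to 0.39. In R4 it was above in NC, CM_EE and CM_EE_AI (0.19, 0.08 and 0.06) and below in CM_EE_IVF (−0.08).

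**Figure D4:**
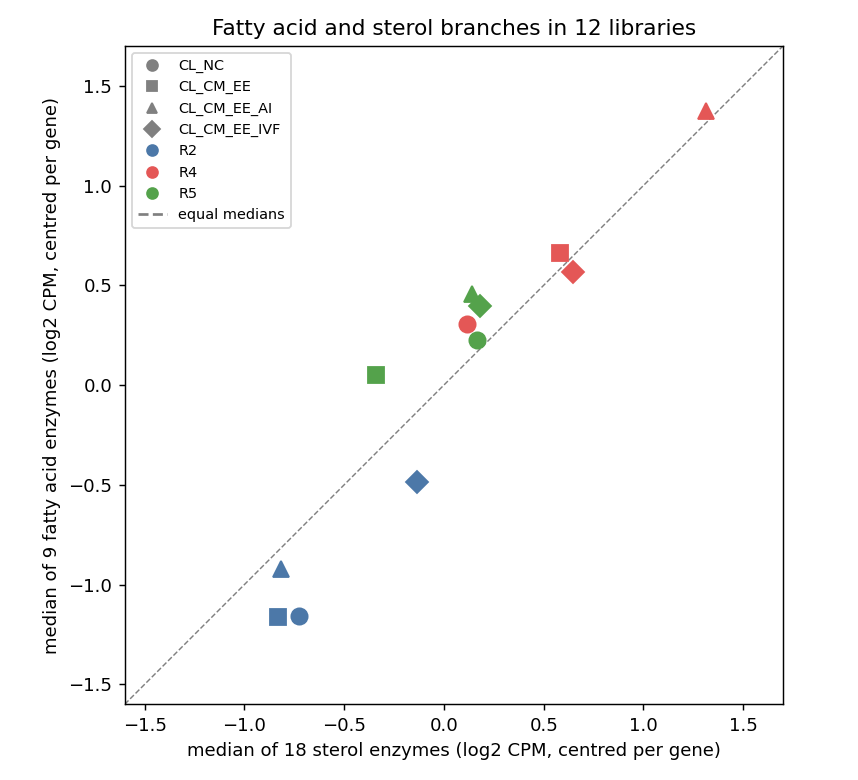
Each point is 1 of 12 libraries: the horizontal axis is the median centred log2 CPM of 18 sterol enzymes, the vertical axis that of 9 fatty acid enzymes, and the dashed line marks equal medians. The R2 points lie below the line and the R5 points above it, and CM_EE_AI R4 lies at the upper right at 1.31 and 1.37.

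The same contrast can be read within each group, where 1 library of each number was compared. In R4 over R2 the fatty acid median difference exceeded the sterol one in all 4 groups, by 0.41 in NC, 0.29 in CM_EE, 0.10 in CM_EE_AI and 0.23 in CM_EE_IVF. In R5 over R2 it exceeded it by 0.39, 0.62, 0.76 and 0.69. In R4 over R5 it was larger in NC, by 0.12, and smaller in the other 3 groups, by −0.43, −0.59 and −0.26. With ACLY, ACSS2 and LPIN1 left out of the fatty acid branch, the excess in the R5 over R2 fit was 0.42 in place of 0.62.

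Markers of cell types differed between the R numbers too, and their part in these results was not tested. The summed CPM of 7 luteal steroidogenic markers, all 7 in the table, was 1311 to 2274 in R2, 1571 to 5751 in R4 and 1330 to 2013 in R5. Of these 7, 3 were called higher in R4 than in R2, 1 higher in R5 than in R2, and 4 higher and 1 lower in R4 than in R5. Among all genes 8.72%, 11.5% and 8.67% were called higher in these contrasts, and 5.58% lower in R4 than in R5. The 1 of 7 in R5 over R2 is close to the share of all genes. STAR was at 211, 463, 986 and 527 CPM in R4, against 140.1 to 256 CPM in R2 and 138 to 191 CPM in R5. CM_EE_AI R4 was thus the highest library for STAR as for the sterol enzymes, and NC R4 the lowest of its set.

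The summed CPM of 8 endothelial markers was 1242 to 1536 in R2, 758 to 1110.1 in R4 and 803 to 1129 in R5. Among them PECAM1, CDH5 and VWF, which mark the vessel lining, fell in R4 and in R5 against R2. Of the 8, 2 rose and 4 fell in R4 against R2, and 1 rose and 3 fell in R5 against R2. Of all genes, 4.93% fell in R4 and 9.26% in R5 against R2, beside the 8.72% and 11.5% that rose. The 6 fibroblast markers, of which 3 fell in R4 and 4 in R5 against R2, summed to 618 to 998 CPM in R2, 243 to 973 CPM in R4 and 323 to 399 CPM in R5. The 6 smooth muscle and pericyte markers summed to 340.5 to 477, 364 to 637 and 218 to 295 CPM in R2, R4 and R5. Of these, 4 rose in R4 over R2 and 3 in R4 over R5, the directions in which most called members moved, and 1 rose and 1 fell in R5 against R2. ACTA2 and TAGLN, of the contractile apparatus, rose in R4 over R2 (log2 differences 1.14 and 1.18) and over R5 (1.39 and 1.38), and CNN1 rose in R4 (2.07) and R5 (1.75) over R2. The 4 red blood cell markers summed to 33.6 to 61.1 CPM in R2, 3.23 to 5.94 CPM in R4 and 4.00 to 4.49 CPM in R5. Only HBA and HBA1, with nearly the same R2 values, carried this excess (log2 differences −4.27 and −4.38 in R4 against R2). HBB was lower in R2 than in R4 within every group, and ALAS2 overlapped between the R numbers. Adipocyte markers, of which 4 of 6 were in the table, were near 0: they summed to between 0.892 and 4.28 CPM over the 12 libraries, and ADIPOQ and LEP had 0 counts in at least 1 library. T cell markers (4 of 5) summed to 1.83 to 5.95 CPM, and macrophage markers (5 of 6) to 12.1 to 17.8 CPM in R2, 16.6 to 37.7 CPM in R4 and 16.96 to 18.6 CPM in R5. Of the macrophage markers only CSF1R, the macrophage growth factor receptor, was called, higher in R4 (log2 difference 1.26) and R5 (0.86) than in R2. The macrophage sum of 37.7 CPM was that of CM_EE_IVF R4, where CD163 was at 17.6 CPM, against 3.13 to 5.94 CPM elsewhere in R4.

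Other genes of the same metabolism were counted from 3 further lists, to be read beside the shares of all genes called: 8.72% higher and 4.93% lower in R4 against R2, 11.5% and 9.26% in R5 against R2, and 8.67% and 5.58% in R4 against R5. Of 27 other fatty acid and glycerolipid genes tested, 11 were called higher in R4 than in R2, 5 in R5 than in R2, and 7 higher and 1 lower in R4 than in R5. HSD17B12, a reductase of fatty acid elongation, had 90.5 ± 22.0 CPM in R2, 526 ± 206 CPM in R4 and 162 ± 24.9 CPM in R5. ELOVL5, an elongase of polyunsaturated chains, had 50.2 ± 9.40, 207 ± 72.3 and 55.1 ± 9.25 CPM, and so was called in R4 over both others and not in R5 over R2. PNPLA3, a lipid droplet hydrolase, rose further in R5: it had 1.74 ± 0.437 CPM in R2, 8.12 ± 2.36 CPM in R4 and 14.6 ± 4.09 CPM in R5, and was called in all 3 contrasts, lower in R4 than in R5.

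Of 13 other isoprenoid and sterol genes, 4 were called higher in R4 than in R2, 1 in R5 than in R2 and 3 in R4 than in R5, with a median log2 difference of 0.19 for R4 over R2. NPC1, which exports cholesterol from lysosomes, had 42.5 ± 4.74, 74.1 ± 9.40 and 37.7 ± 6.62 CPM in R2, R4 and R5, and FDX1, the electron donor of the first step from cholesterol to steroids, 74.8 ± 16.9, 163 ± 78.3 and 64.2 ± 4.31 CPM. FDXR, which reduces FDX1, had 26.0 ± 6.11, 47.6 ± 14.0 and 48.0 ± 5.69 CPM. NPC1 and FDX1 were called in R4 over both others, FDXR in R4 and R5 over R2. FDX1 is also among the luteal markers above.

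Of 13 genes of SREBP processing and sterol sensing, 2 rose and 3 fell in R4 against R2, 1 rose and 3 fell in R5 against R2, and 1 rose and 1 fell in R4 against R5. The 1 of 13 that rose in R5 over R2 is no larger a share than that of all genes. ABCG1, a sterol efflux pump known as a target of the oxysterol-sensing liver X receptors, ran opposite to the members. It had 14.9 ± 4.90 CPM in R2, 0.977 ± 0.300 CPM in R4 and 2.70 ± 1.30 CPM in R5, and fell by 3.89 on the log2 scale in R4 against R2. RNF145, a sterol-responsive ubiquitin ligase, fell in R4 (log2 difference −0.58) and in R5 (−1.01) against R2.

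The comparison of groups asks how luteal tissue differed between NC and the explant-related groups, without and with an embryo. No member was called against NC. In the edgeR fit without the R number, 0 of 33 had an unadjusted p under 0.05 in any of the 6 comparisons. With the R number as a replicate block some members were under that limit, and 0 genes were called. Examples are FASN in CM_EE_AI over NC (edgeR unadjusted p = 0.00445) and SCAP in CM_EE_IVF over NC (edgeR unadjusted p = 0.00302). Over all genes, edgeR gave 142, 213 and 281 at an unadjusted p under 0.05 for CM_EE, CM_EE_AI and CM_EE_IVF against NC, and DESeq2 195, 336 and 439, with 0 called after adjustment by either tool. The 3 comparisons share the NC libraries. Values within a group spread widely, as for IDI1: 141 ± 126 CPM (SD, n = 3) in CM_EE_AI and 75.7 ± 14.1 CPM in NC. The luteal marker sum ran from 1341 to 1751 CPM in NC, 1311 to 2758 CPM in CM_EE, 1396 to 5751 CPM in CM_EE_AI and 1793 to 3291 CPM in CM_EE_IVF. Markers of some other cell types also lay above NC in the embryo groups. In CM_EE_IVF all 6 fibroblast markers did (median log2 difference 0.87), all 6 smooth muscle and pericyte markers (0.60) and all 5 macrophage markers (0.54). In each of these lists 1 marker had an unadjusted p under 0.05 by edgeR. In CM_EE_AI all 6 fibroblast (0.46) and all 6 smooth muscle and pericyte markers (0.29) were above 0. The endothelial marker sum was lower, at medians of 1129 CPM in NC, 931 CPM in CM_EE_AI and 867 CPM in CM_EE_IVF, with overlapping ranges. So was the adipocyte marker sum, near 0 throughout, at medians of 3.86, 2.77 and 2.62 CPM in the same order. The part of these markers in the group values was not tested.

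CM_EE lay close to NC, with a median log2 difference of 0.02 for the sterol and 0.12 for the fatty acid branch, against −0.03 over all genes. Of 18 sterol enzymes 10 were above 0, and of 9 fatty acid enzymes 7. The lowest p in each role were those of ELOVL6 (0.37, −0.79 to 1.53), EBP (−0.31, −1.61 to 0.99) and INSIG2 (−0.39, −1.02 to 0.24). The 95% intervals of these genes allow differences of more than 1 log2 unit on at least 1 side. The near-zero medians rested on CM_EE R4: without it they were −0.45 and −0.38.

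CM_EE_AI lay above NC in all 18 sterol and all 9 fatty acid enzymes, at medians of 0.60 and 0.76 against 0.03 over all genes. Both medians rested on 1 library: without CM_EE_AI R4 they were −0.16 and −0.01. IDI1, the sterol gene with the lowest p, had a log2 difference of 0.89 (−0.28 to 2.07), which was −0.15 without that library. ELOVL6 had 0.89 (−0.28 to 2.06) and SCAP 0.48 (−0.55 to 1.52).

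CM_EE_IVF also lay above NC in all 18 sterol and all 9 fatty acid enzymes, at medians of 0.36 and 0.43 against −0.04 over all genes. FDPS had 0.66 (−0.35 to 1.67), ELOVL6 0.51 (−0.66 to 1.67) and SCAP 0.64 (−0.40 to 1.68). The fatty acid median was 0.12 without NC R2 and 0.11 without CM_EE_IVF R4.

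Within the R numbers, where the library of each group was set against the NC library of the same number, the 3 numbers did not give the same picture. For CM_EE_AI the sterol and fatty acid medians were 0.01 and 0.07 in R2, 1.18 and 1.22 in R4, and −0.12 and 0.35 in R5. For CM_EE_IVF they were 0.68 and 0.78 in R2, 0.52 and 0.45 in R4, and 0.00 and 0.17 in R5. For CM_EE they were −0.06 and −0.06 in R2, 0.38 and 0.53 in R4, and −0.54 and −0.37 in R5. CM_EE R5 thus lay below NC R5, in all 18 sterol enzymes and 6 of 9 fatty acid enzymes.

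The number of members higher than NC within each of the 3 R numbers, a count with no test, was 2 of 33 for CM_EE (ELOVL6 and SCAP; 5.82% of all genes), 12 for CM_EE_AI (13.4% of all genes) and 15 for CM_EE_IVF (12.7%). The 12 in CM_EE_AI were the sterol enzymes PMVK, MVD, LSS and HSD17B7, the fatty acid enzymes ACLY, ACACA, FASN, ELOVL6, FADS2 and LPIN1, and SREBF1 and SCAP. The 15 in CM_EE_IVF were 9 sterol enzymes, ACAT2, MVD, IDI1, FDPS, SQLE, LSS, CYP51A1, HSD17B7 and DHCR7, with ACLY, ACSS2, FASN, ELOVL6, LPIN1 and SCAP. ELOVL6 and SCAP were higher than NC in all 3 numbers and all 3 groups. These differences reuse the same NC libraries, and NC R2 was the lowest of all libraries for both genes. The share of all genes with this pattern was not counted. For ELOVL6 the log2 differences were 0.11, 0.53 and 0.32 in CM_EE, 0.02, 1.36 and 0.62 in CM_EE_AI, and 0.27, 0.56 and 0.57 in CM_EE_IVF, for R2, R4 and R5. For SCAP they were 0.22, 0.40 and 0.06 in CM_EE, 0.14, 0.73 and 0.35 in CM_EE_AI, and 0.96, 0.62 and 0.48 in CM_EE_IVF.

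**Figure D5:**
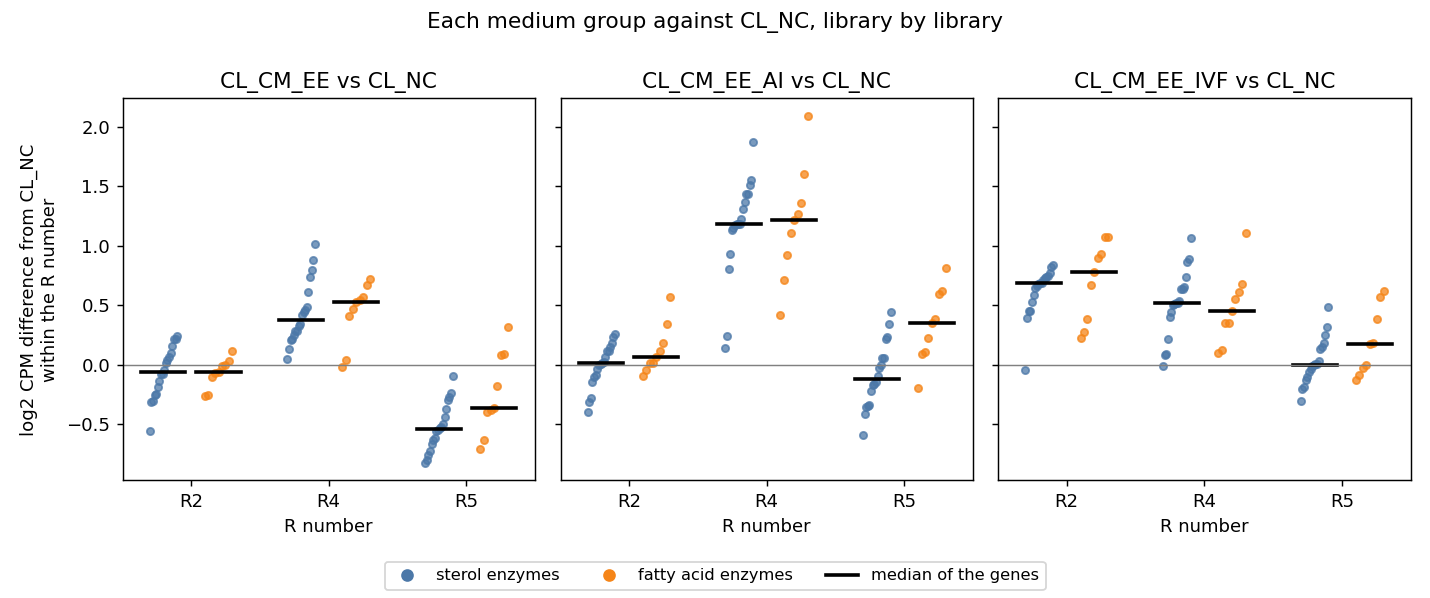
Each point is the log2 CPM of 1 gene in a CM_EE, CM_EE_AI or CM_EE_IVF library minus that in the NC library of the same R number, for 18 sterol and 9 fatty acid enzymes; black bars are medians. The sterol median of CM_EE_AI is 0.01 among R2, 1.18 among R4 and −0.12 among R5 libraries, and CM_EE lies below NC in R5 (median −0.54).

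Against CM_EE, both embryo groups were above 0 in all 18 sterol and all 9 fatty acid enzymes. For CM_EE_AI over CM_EE the medians were 0.58 and 0.61, which became −0.17 and 0.03 without CM_EE_AI R4 and 1.05 and 0.94 without CM_EE R4, and the fatty acid one 0.24 without CM_EE R2 and 0.95 without CM_EE_AI R2. For CM_EE_IVF over CM_EE they were 0.36 and 0.31, the sterol one 0.90 without CM_EE R4 and the fatty acid one −0.11 without CM_EE R2. Members higher within each R number were 17 of 33 for CM_EE_AI over CM_EE (14.4% of all genes) and 22 of 33 for CM_EE_IVF over CM_EE (17.8%). The 22 included 12 sterol enzymes, 6 fatty acid enzymes (ACACA, FASN, ELOVL6, SCD, FADS1 and FADS2), SREBF2, SCAP, INSIG1 and INSIG2. None of these comparisons had a called gene, with 242 and 285 genes at an unadjusted p under 0.05 by edgeR and 311 and 400 by DESeq2, which called 0 as well.

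CM_EE_IVF against CM_EE_AI gave medians of −0.22 for the sterol and −0.38 for the fatty acid branch, against −0.07 over all genes. Without CM_EE_AI R4 the sterol median was 0.56 and the fatty acid median 0.18, so both turned. Within the R numbers the sterol differences were 0.68 in R2, −0.67 in R4 and 0.14 in R5, and the fatty acid ones 0.50, −0.76 and −0.16. INSIG1 was the 1 member of 33 higher in CM_EE_IVF within each R number, where 5.91% of all genes were. By edgeR 127 genes and by DESeq2 164 had an unadjusted p under 0.05, and 0 were called by either.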

How the data were processed

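The authors deposited whole counts per gene for 12 corpus luteum columns; none of the deposited columns held fractional expected counts, and 0 values were rounded. STAR, featureCounts, DESeq2, cutadapt and Trim Galore are listed in the submitters' processing notes. Tool versions, the build, the annotation and the strand setting were not given in the sources used, so reads of overlapping genes cannot be told apart. No deposited gene had fewer than 36 counts over the columns. Columns were matched to groups by name, and 0 belonged to other samples.

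Genes were kept with filterByExpr by group and scaled by TMM. Groups were compared with edgeR's quasi-likelihood F test on a group term, and R numbers with the same test on an R number term beside a group term. Each fit took all 18939 genes, with Benjamini-Hochberg adjustment and a threshold of 0.05. Log2 CPM within libraries used a prior count of 2, and intervals are 95%. Branches are described by counts and medians. The fits were also run on simulated counts with known changes. Those counts held no other differences between R numbers, so they cannot show how the fits behave with the spread seen here. Members, branches, other lists, tests and the naming rule were chosen with earlier results of these data known. Every member is named; values in every library are given for members with the lowest p in each role and for the SREBF and INSIG genes, and SQLE, SCD, FADS1 and others shown in full were added after their values were seen. Up to 3 called genes of lowest p are named from each other list, and 1 of these is not reported here. Alternatives were DESeq2's size factors, DESeq2, no filter, mitochondrial and ribosomal RNA genes left out, an R number block, no group term, other branch membership, and each library left out. Sequences, promoter motifs and endometrial libraries were not analysed here. The software was edgeR 4.0.16 with limma 3.58.1 in R 4.3.3, DESeq2 1.42.0, and Python 3.11.15 with matplotlib 3.10.9.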

Additional observations from a re-analysis of the deposited data

How the results depend on the processing

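The 4 libraries per R number and the 3 per group limit precision, and no alternative gave a called gene between groups. The cause of each change below was not tested. Under DESeq2's size factors in edgeR, 5 sterol enzymes were called higher in R5 than in R2, and the median log2 difference of all genes in that contrast was −0.02 in place of 0.08. Log2 differences that turned were ACLY in R4 against R5 (0.013 with DESeq2's size factors and with DESeq2, 0.0069 with no group term), HMGCS1 in R5 against R2 (−0.0039 and −0.0038), and LPIN1 in R4 against R5 (−0.0018 with no group term). Calls that ended with DESeq2's size factors were HMGCS1, MVD and TM7SF2 (R4 over R2) and HSD17B7, INSIG1, MVD and MVK (R5 over R2), and with DESeq2 HSD17B7 and MVD (R5 over R2). With no group term those of CYP51A1 and FASN in R4 against R5 ended. Calls gained in R4 over R5 were FADS2, IDI1 and LSS with DESeq2, and IDI1 also with no group term. With no group term 0 fatty acid enzymes were called lower in R4 than in R5, and without ACLY, ACSS2 and LPIN1 the fatty acid minus sterol median in R5 over R2 was 0.42.

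With each library left out in turn, sterol enzymes called higher numbered 10 to 18 in R4 over R2, 3 to 10 in R5 over R2 and 2 to 10 in R4 over R5. Fatty acid enzymes in R4 over R5 numbered 1 to 4 called higher and 0 to 1 called lower. All genes called numbered 1391 to 2526 in R4 against R2, 2441 to 4347 in R5 against R2 and 1214 to 2949 in R4 against R5. The R5 over R2 median was 0.27 to 0.77 for the sterol and 0.89 to 1.40 for the fatty acid branch.

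Group medians with each library left out ran as follows for the sterol branch: −0.45 to 0.27 for CM_EE over NC, −0.16 to 0.94 for CM_EE_AI over NC, −0.17 to 1.05 for CM_EE_AI over CM_EE, 0.10 to 0.90 for CM_EE_IVF over CM_EE and −0.57 to 0.56 for CM_EE_IVF over CM_EE_AI. For the fatty acid branch they ran from −0.38 to 0.56 for CM_EE over NC, −0.0073 to 1.11 for CM_EE_AI over NC, 0.11 to 0.69 for CM_EE_IVF over NC, 0.030 to 0.95 for CM_EE_AI over CM_EE and −0.11 to 0.67 for CM_EE_IVF over CM_EE. The fatty acid minus sterol median ran from 0.021 to 0.29 (CM_EE over NC), −0.16 to 0.36 (CM_EE_AI over NC), −0.24 to 0.15 (CM_EE_IVF over NC), −0.17 to 0.23 (CM_EE_AI over CM_EE), −0.29 to 0.048 (CM_EE_IVF over CM_EE) and −0.38 to −0.041 (CM_EE_IVF over CM_EE_AI).

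Single genes whose log2 difference turned with 1 library left out were, in R5 over R2, ACAT2 (−0.12 to 0.31), HMGCS1 (−0.29 to 0.30), IDI1 (−0.022 to 0.50), MYLIP (−0.035 to 0.46), SC5D (−0.10 to 0.42) and SCD (−0.030 to 0.60). In R4 over R5 they were ACLY (−0.20 to 0.15), FDPS (−0.13 to 0.30), LPIN1 (−0.14 to 0.20), MVD (−0.13 to 0.19) and SREBF1 (−0.038 to 0.31), in R4 over R2 INSIG2 (−0.13 to 0.22), and in CM_EE_AI over NC IDI1 (−0.15 to 1.22).

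What the R numbers mark is not stated, and not every same-numbered pair passed a correlation of 0.1, so the numbers were not treated as pairing the samples. Differences between R numbers were thus counted as spread within groups in the main group fit. Same-numbered libraries of different groups correlated at 0.08 to 0.66 in their deviations from the group means (15 of 18 pairs over 0.1), and libraries with other numbers at −0.49 to 0.20 (6 of 36). In 30 of 36 cases a library correlated best with the library of its own number in another group, a hint from the data and not the design. With the R number as a replicate block, edgeR called 0 genes in all 6 group comparisons, with 298 genes at an unadjusted p under 0.05 for CM_EE over NC, 679 for CM_EE_AI over NC, 817 for CM_EE_IVF over NC, 865 for CM_EE_AI over CM_EE, 976 for CM_EE_IVF over CM_EE and 163 for CM_EE_IVF over CM_EE_AI. Members under that limit numbered 0, 6, 4, 6, 6 and 0 in the same order. The blocked sterol and fatty acid medians were −0.07 and −0.05 for CM_EE over NC and 0.04 and −0.10 for CM_EE_IVF over CM_EE_AI, so that both turned in the former and the sterol one in the latter. They were 0.40 and 0.59 for CM_EE_AI over NC, and the signs of both branches were the same as without the block in the other 3 comparisons.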
